A study of Mus musculus with 9 samples.

Results

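The genes described here mark retinal bipolar cells or help to specify them, and were followed in the retina of young mice with and without melanopsin. They are the transcription factor genes Vsx1, Lhx4, Isl1 and Bhlhe23, the glutamate receptor gene Grik1, the kinase gene Prkca, the calcium-binding protein genes Cabp5 and Scgn, and the genes Pcp2 and Samsn1. The 10 genes were taken by name, whatever their level, from the 53280 genes of the count table, and each was found there and in the transcript table.

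Bipolar cells carry signals from rods and cones to the inner retina, and they are among the last retinal cells to be born. ON bipolar cells (rod bipolar cells and some cone bipolar types) sense glutamate through the receptor mGluR6 and its cascade, whereas OFF cone bipolar cells use AMPA and kainate receptors such as the one that Grik1 encodes. A relay of transcription factors sets the class: Otx2 acts broadly, and factors such as Bhlhe23, Isl1 and Vsx1 act in subsets of the types.

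Neural retina was collected at postnatal day 4 (P4) from Opn4 knockout and wildtype pups, born to heterozygous parents and kept at about 300 lux. Opn4 encodes melanopsin, the photopigment of intrinsically photosensitive ganglion cells. Each of the 5 knockout and 4 wildtype samples pooled 4 retinas of 2 animals of 1 genotype, taken between ZT6 and ZT7 (hours after lights on). Strain, sex, litter, batch and the deleted stretch of Opn4 are not in the labels.

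Poly-A RNA of each pool gave a total of 65.5 to 86.1 M counts, so that 3 counts, taken as the detection floor, correspond to 0.0348 to 0.0461 CPM (counts per 1 M counts). Opn4 itself lay between 1.07 and 1.82 CPM in the knockout pools and between 11.4 and 12.03 CPM in the wildtype pools, with 11.6% of the wildtype mean remaining (exact two-sided permutation test over 126 splits, p = 0.00794, the smallest the design allows). Every knockout pool was therefore far below every wildtype pool.

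The deposited counts were compared between genotypes with edgeR's quasi-likelihood test, and a gene was called at a Benjamini-Hochberg adjusted p under 0.05 over the 21150 genes tested. Log2 fold changes are knockout minus wildtype, each with its standard error (SE). A group of 4 bipolar genes was higher in knockout retina: Bhlhe23, Vsx1, Grik1 and Prkca. That is 4 of 10 called higher and 0 of 10 called lower, beside 3.59% of all tested genes called, 1.34% higher and 2.25% lower. The 10 genes were chosen with earlier results of these data known, so these shares describe the list and do not test it. The other 6 (Scgn, Samsn1, Lhx4, Isl1, Cabp5 and Pcp2) did not pass the threshold. The median log2 fold change of the 10 was 0.34, with 7 values above 0 and 3 below, beside a median of 0.0012 over all tested genes. In the same 4 genes all knockout pools lay above all wildtype pools, a separation seen upward in 3.92% of tested genes. All 10 passed the filter on low counts, but Bhlhe23 and Scgn reached its level in only 3 and 1 of the 4 wildtype pools, so that they entered the test through the knockout pools. Of the 8 genes that reached it in every wildtype pool, 3 were called. In whole retina, more cells that express a gene, of whatever type, and more of its RNA per cell cannot be told apart.

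**Figure D1:**
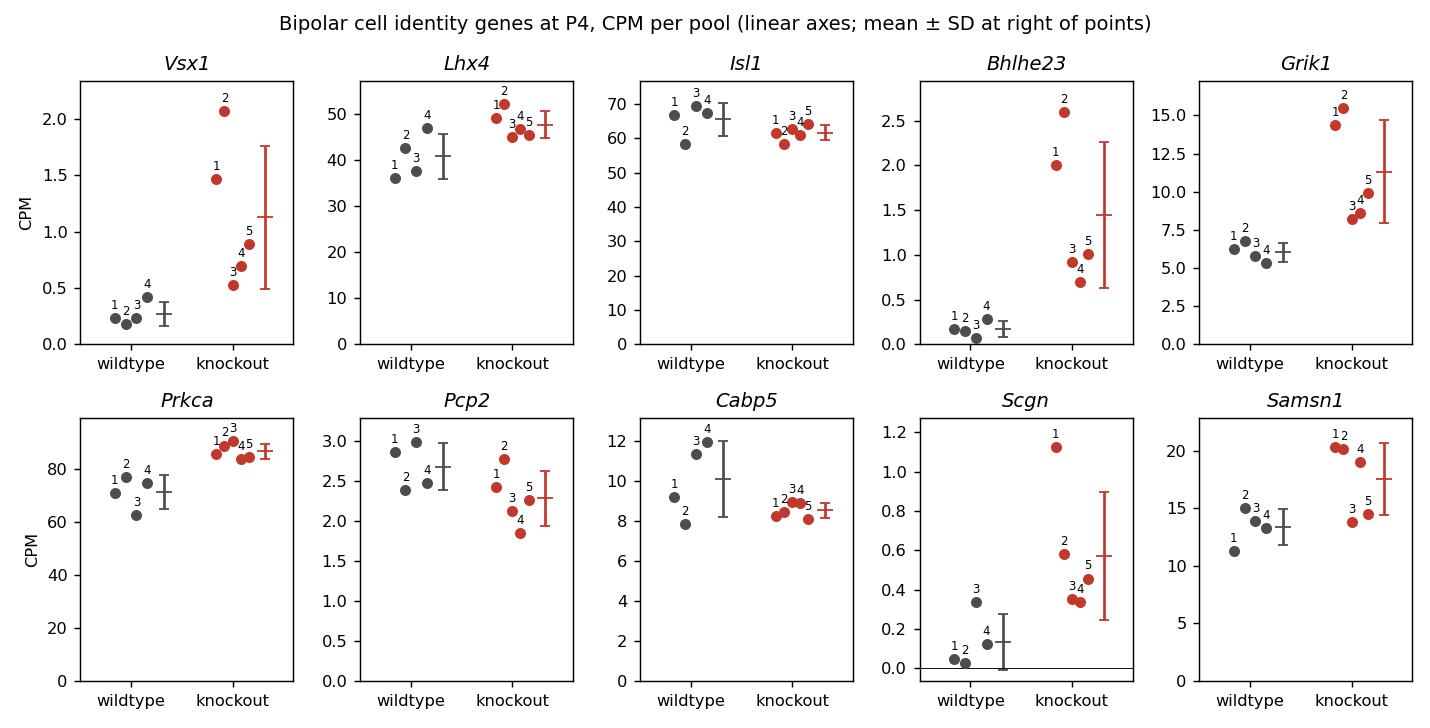
CPM (linear axes) of each of the 10 bipolar genes in the 4 wildtype pools (grey) and the 5 knockout pools (red), numbered by pool, with the mean and SD beside the points. Knockout points lie above all wildtype points for Vsx1, Bhlhe23, Grik1 and Prkca and overlap them for the other genes.

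The sequences before a RefSeq start of 5 of the genes are shown to set their motifs and base composition beside their levels. They are 2 called genes (Bhlhe23 and Prkca), and 3 uncalled genes whose window holds a homeodomain motif (Isl1, Cabp5 and Samsn1). The Samsn1 start used lies inside the GENCODE span of the gene (chr16:75858793-76022281), so its window is not upstream of the whole gene. Sequences are from RefSeq (GRCm38.p6), read 5′ to 3′ on the gene's strand, and end before the first annotated exon base. RefSeq windows were matched for 9 of the 10 genes, all but Grik1. Capitals mark TAATCC, the core bound by OTX2 and CRX, or TAATTA, a core of many homeodomain factors, searched on both strands.
Bhlhe23, chr2:180776901-180777150, minus strand: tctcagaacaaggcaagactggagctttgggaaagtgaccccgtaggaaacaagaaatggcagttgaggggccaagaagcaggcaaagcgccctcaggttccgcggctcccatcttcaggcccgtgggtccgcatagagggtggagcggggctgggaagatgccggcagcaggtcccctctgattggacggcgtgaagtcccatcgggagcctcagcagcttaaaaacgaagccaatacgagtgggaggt
Prkca, chr11:108343929-108344138, minus strand: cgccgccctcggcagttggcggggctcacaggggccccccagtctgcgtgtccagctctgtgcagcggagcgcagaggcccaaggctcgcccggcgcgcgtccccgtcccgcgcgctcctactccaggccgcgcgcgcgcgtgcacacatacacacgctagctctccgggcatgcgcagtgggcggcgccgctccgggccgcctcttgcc
Isl1, chr13:116309690-116309938, minus strand: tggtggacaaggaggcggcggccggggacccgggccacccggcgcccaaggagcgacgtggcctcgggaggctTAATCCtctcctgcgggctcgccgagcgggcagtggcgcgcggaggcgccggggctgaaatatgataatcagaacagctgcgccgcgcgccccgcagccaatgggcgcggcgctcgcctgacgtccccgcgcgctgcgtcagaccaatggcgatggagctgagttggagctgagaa
Cabp5, chr7:13397905-13398131, plus strand: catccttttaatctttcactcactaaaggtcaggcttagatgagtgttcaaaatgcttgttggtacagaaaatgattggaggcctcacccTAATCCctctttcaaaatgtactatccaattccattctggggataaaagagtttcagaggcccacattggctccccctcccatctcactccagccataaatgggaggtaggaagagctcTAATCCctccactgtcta
Samsn1, chr16:75909311-75909516, minus strand: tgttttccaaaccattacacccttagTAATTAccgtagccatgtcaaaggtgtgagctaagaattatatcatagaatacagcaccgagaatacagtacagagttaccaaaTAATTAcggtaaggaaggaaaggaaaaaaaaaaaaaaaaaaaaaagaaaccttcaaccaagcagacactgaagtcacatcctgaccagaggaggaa

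In the 250 bases before the RefSeq start, which gave 12 windows for the 9 matched genes, TAATCC stood in 2 of the 12 windows (Cabp5 and Isl1) and in 6.25% of all 32851 windows. TAATTA stood in 2 of the 12 (Samsn1 and 1 window of Pcp2) and in 4.84% of all windows. Neither word was found in the windows of Bhlhe23, Prkca, Vsx1, Lhx4 or Scgn. The Lhx4 window and the Pcp2 window with TAATTA lie inside the GENCODE spans of their genes. Only 27 bases of the Vsx1 window precede the first annotated exon base. These windows therefore do not describe sequence upstream of the whole gene. GC content was 76.8% in the Prkca window, 71.2% in that of Isl1 and 59.2% in that of Bhlhe23, against 44.0% for Cabp5, 38.4% for Samsn1 and a median of 52.4% over all windows. These matches describe letters in a window, not bound sites.

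Bhlhe23 encodes a basic helix-loop-helix factor needed for the maturation of rod bipolar cells (GRCm38, GENCODE M21, chr2:180774381-180776900, minus strand). It was found at 2.00, 2.60, 0.922, 0.698 and 1.01 CPM in knockout pools 1 to 5, and at 0.174, 0.150, 0.0723 and 0.286 CPM in wildtype pools 1 to 4. The lowest knockout pool was above the highest wildtype pool, and knockout pools 1 and 2 stood well above the other knockout pools. The means were 1.45 ± 0.816 CPM (SD, n = 5) and 0.170 ± 0.0882 CPM (SD, n = 4). This gave a log2 fold change of 3.07 (SE 0.48) with an edgeR adjusted p of 0.00251, the largest change among the 10 genes. It rests on low counts, 52 to 201 per knockout pool and 6 to 23 per wildtype pool. An overlapping gene model on the same strand, Gm14343, shares 144 exon bases with Bhlhe23 and had 0 to 5 counts.

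Vsx1 encodes a paired-like homeodomain factor that completes the differentiation of several cone bipolar types (chr2:150680702-150689360, minus strand). It was found at 1.46, 2.07, 0.523, 0.698 and 0.890 CPM in knockout pools 1 to 5, and at 0.232, 0.177, 0.229 and 0.422 CPM in wildtype pools 1 to 4. As for Bhlhe23, the genotypes did not overlap and knockout pools 1 and 2 were highest. The means were 1.13 ± 0.634 CPM (SD, n = 5) and 0.265 ± 0.108 CPM (SD, n = 4), from 34 to 160 counts per knockout pool and 13 to 34 per wildtype pool. Vsx1 was thus higher in knockout by 2.08 on the log2 scale (SE 0.43), with adjusted p = 0.0146 by edgeR. Leaving out wildtype pool 1, 2 or 3 ended the call, with an edgeR adjusted p of 0.0554, 0.0542 and 0.0514.

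Lhx4 encodes a LIM homeodomain factor of cone bipolar cells and of young photoreceptors (chr1:155698031-155751684, minus strand). It was found at 49.1, 52.1, 45.0, 46.8 and 45.3 CPM in knockout pools 1 to 5, and at 36.1, 42.5, 37.6 and 46.8 CPM in wildtype pools 1 to 4. Wildtype pool 4 reached into the knockout range and the other wildtype pools were below it. The log2 fold change of 0.23 (SE 0.08) did not pass the threshold with edgeR (adjusted p = 0.143), whereas DESeq2 gave an adjusted p of 0.0475.

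Isl1 encodes a LIM homeodomain factor of ON bipolar cells that amacrine and ganglion cells also use (chr13:116298281-116309689, minus strand). Its level was 61.4, 58.4, 62.8, 61.0 and 64.2 CPM in knockout pools 1 to 5, and wildtype pools 1 to 4 held 66.8, 58.3, 69.3 and 67.4 CPM. The knockout pools sat within the wildtype range. Its log2 fold change of −0.09 (SE 0.05) did not pass (edgeR adjusted p = 0.457).

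Grik1 encodes the kainate receptor subunit GluK1, through which several OFF cone bipolar types receive cone input (chr16:87895900-88290265, minus strand). It was found at 14.4, 15.5, 8.22, 8.59 and 9.94 CPM in knockout pools 1 to 5, and at 6.27, 6.77, 5.80 and 5.33 CPM in wildtype pools 1 to 4. The genotypes did not overlap, and knockout pools 1 and 2 were again the highest. The means were 11.3 ± 3.38 CPM (SD, n = 5) and 6.04 ± 0.621 CPM (SD, n = 4). Grik1 differed by a log2 fold change of 0.91 (SE 0.18), with adjusted p = 0.0141 by edgeR, or 0.0571 without wildtype pool 4.

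Prkca encodes protein kinase C alpha, the usual marker protein of rod bipolar cells (chr11:107933387-108343928, minus strand). Knockout pools 1 to 5 held 85.5, 88.9, 90.6, 83.8 and 84.5 CPM, and wildtype pools 1 to 4 held 70.8, 77.1, 62.6 and 74.8 CPM. The 5 knockout pools lay close together above every wildtype pool, and here pools 1 and 2 did not stand apart. The means were 86.6 ± 2.95 CPM (SD, n = 5) and 71.3 ± 6.41 CPM (SD, n = 4). The difference was small, a log2 fold change of 0.28 (SE 0.06) with adjusted p = 0.0145 by edgeR, or 0.0531 without wildtype pool 1.

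Cabp5 encodes a calmodulin-like protein of rod bipolar and some cone bipolar cells (chr7:13398132-13408887, plus strand). For Cabp5, knockout pools 1 to 5 held 8.29, 8.47, 8.96, 8.89 and 8.10 CPM, and wildtype pools 1 to 4 held 9.24, 7.86, 11.4 and 11.97 CPM. Wildtype pools 3 and 4 were highest and wildtype pool 2 lowest, with the knockout pools between. A log2 fold change of −0.24 (SE 0.12) did not pass (edgeR adjusted p = 0.317).

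Scgn encodes secretagogin, a calcium-binding protein of several cone bipolar types (chr13:23953456-23991214, minus strand). It was found at 1.12, 0.582, 0.354, 0.335 and 0.456 CPM in knockout pools 1 to 5, and at 0.0464, 0.0273, 0.337 and 0.124 CPM in wildtype pools 1 to 4. Wildtype pool 3 was level with the lowest knockout pools, and the other wildtype pools held only 2 to 10 counts. At a log2 fold change of 2.07 (SE 0.63), Scgn did not pass (edgeR adjusted p = 0.103). Without wildtype pool 3 the log2 fold change was 3.07 and passed (edgeR adjusted p = 0.0203), so that 1 wildtype pool decides the call. That pool was the only wildtype pool to reach the level of the filter on low counts. Of 15 other settings that gave Scgn an adjusted p, this was the only 1 in which it was called.

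Pcp2 encodes a GoLoco-domain modulator of G proteins found in ON bipolar cells and in Purkinje cells (chr8:3623371-3625545, minus strand). Knockout pools 1 to 5 held 2.42, 2.77, 2.12, 1.85 and 2.26 CPM, and wildtype pools 1 to 4 held 2.87, 2.38, 2.99 and 2.47 CPM. The ranges overlapped, and a log2 fold change of −0.23 (SE 0.15) did not pass (edgeR adjusted p = 0.498). Pcp2 shares 941 exon bases with Pet100 on the opposite strand, and no source used here says whether counting was by strand. Pet100 held 658 to 1002 counts per pool (log2 fold change −0.19, edgeR adjusted p = 0.269), so the Pcp2 level is uncertain.

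Samsn1 encodes an adaptor protein with SH3 and SAM domains that is best known from lymphocytes (chr16:75858793-76022281, minus strand). For Samsn1, knockout pools 1 to 5 held 20.3, 20.1, 13.8, 19.1 and 14.5 CPM, and wildtype pools 1 to 4 held 11.3, 15.1, 13.9 and 13.3 CPM. Knockout pools 1, 2 and 4 were above all wildtype pools, whereas knockout pools 3 and 5 were within their range. Samsn1 missed the threshold with edgeR at a log2 fold change of 0.39 (SE 0.13; adjusted p = 0.126), whereas DESeq2 gave an adjusted p of 0.0251. Leukocyte and microglia markers summed to 69.0 to 79.7 CPM in knockout and 69.5 to 89.6 CPM in wildtype pools. Of these markers, 1 of 8 was called higher (Cd74), beside 1.34% of all tested genes, and their part in the Samsn1 value was not tested.

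In TPM (transcript abundance corrected for length and depth, summed here per gene), Isl1 led the 10 genes with a mean of 80.0 (SD 5.12 over 9 pools). Samsn1 (25.8, SD 7.31), Lhx4 (17.8, SD 2.79), Prkca (17.7, SD 2.09), Pcp2 (13.0, SD 2.63), Cabp5 (9.65, SD 1.5) and Grik1 (5.69, SD 2.65) followed in mean TPM. Scgn (0.858, SD 0.817), Bhlhe23 (0.613, SD 0.608) and Vsx1 (0.342, SD 0.297) were lowest in mean TPM. Neighbours in this order overlapped in range over the pools except Isl1 and Samsn1, and Grik1 and Scgn. The largest log2 fold changes among the 10 genes thus sat on the 3 lowest of them, and the highest, Isl1, was among those not called.

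The TPM values gave another set of calls. With limma on log2(TPM + 0.5), where the added 0.5 damps fold changes at low levels, 1 of the 7 bipolar genes past the TPM filter was called higher, beside 0.621% of the 15295 genes tested. That gene was Samsn1, at 23.4 to 38.5 TPM in knockout and 18.6 to 22.4 TPM in wildtype pools, with no overlap (log2 fold change 0.61, SE 0.13; limma adjusted p = 0.0440). Grik1 had almost the same log2 fold change as in counts, 0.89, but an adjusted p of 0.0538 by limma. Prkca was at 0.23 with an adjusted p of 0.218 by limma, and its TPM ranges overlapped. Vsx1, Bhlhe23 and Scgn were too low for the TPM test. Vsx1 still lay at 0.248 to 0.947 TPM in knockout and 0.0903 to 0.212 TPM in wildtype pools. Bhlhe23 lay at 0.450 to 1.79 TPM in knockout and 0.0558 to 0.193 TPM in wildtype pools, so both kept their genotypes apart. The share of such separations among genes below the TPM filter was not counted. Of the 7 genes tested in TPM, 2 (Grik1 and Samsn1) had knockout TPM above all wildtype TPM, beside 3.92% of all genes tested in TPM.

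Transcript rows show where the TPM of Grik1 and Samsn1 was unsteady. Grik1 had 11 rows, and the highest held 26.1% of its TPM yet was at 0.00463 TPM in knockout pool 3 against 1.66 to 2.94 TPM in the other knockout pools. The next row of Grik1 ran from 0.416 to 3.34 TPM in knockout and from 0.234 to 0.840 TPM in wildtype pools. Samsn1 had 7 rows, and its highest ranged from 1.52 to 16.5 TPM over the pools. Prkca was simpler, with 87.6% of its TPM in 1 row, and Bhlhe23 and Vsx1 had 1 row each. In the authors' deposited table, none of the 10 genes had a q-value under 0.05, beside 1.46% of its 17433 genes. Samsn1 was nearest in the authors' deposited table (q = 0.063, log2 difference 0.54), and Bhlhe23 stood at q = 0.338 with a log2 difference of 2.05.

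Knockout pools 1 and 2 were often the highest. Pool 1 was among the highest 2 of 9 pools for 6 of the 10 genes, and pool 2 for 7. How often these pools ranked highest over all tested genes was not counted. In the same pools, rod and lens markers were also highest. Rod markers summed to 3364 and 3275 CPM in knockout pools 1 and 2, and to 2450.4 to 3364 CPM over all knockout against 2140.3 to 2341 CPM in wildtype pools; 5 of 7 were called higher (Nrl, Cnga1, Pde6b, Sag and Gngt1). Lens markers summed to 15.5 and 11.3 CPM in these pools, and to 5.02 to 15.5 CPM over all knockout against 3.75 to 4.80 CPM in wildtype pools; 2 of 8 were called higher (Cryaa and Cryab), none of the 8 was at 0 in every pool, and 5 were high enough to be tested. Of all tested genes, 1.34% were called higher. The part of rod and lens markers in the bipolar gene values was not tested. A fit without knockout pools 1 and 2 was added as an alternative chosen after seeing the data.

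Without these pools, 2 of the 10 genes were called higher, beside 0.627% of 21374 tested genes. Bhlhe23 kept a log2 fold change of 2.35 (SE 0.43; edgeR adjusted p = 0.0151) and Grik1 one of 0.56 (SE 0.12; adjusted p = 0.0292). Prkca held its size at 0.27 but had an adjusted p of 0.0613 by edgeR. Vsx1 was at 1.40 with an adjusted p of 0.109 by edgeR. Scgn (1.49), Samsn1 (0.24) and Lhx4 (0.16) also had smaller log2 fold changes than over all pools and were not called.

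**Figure D2:**
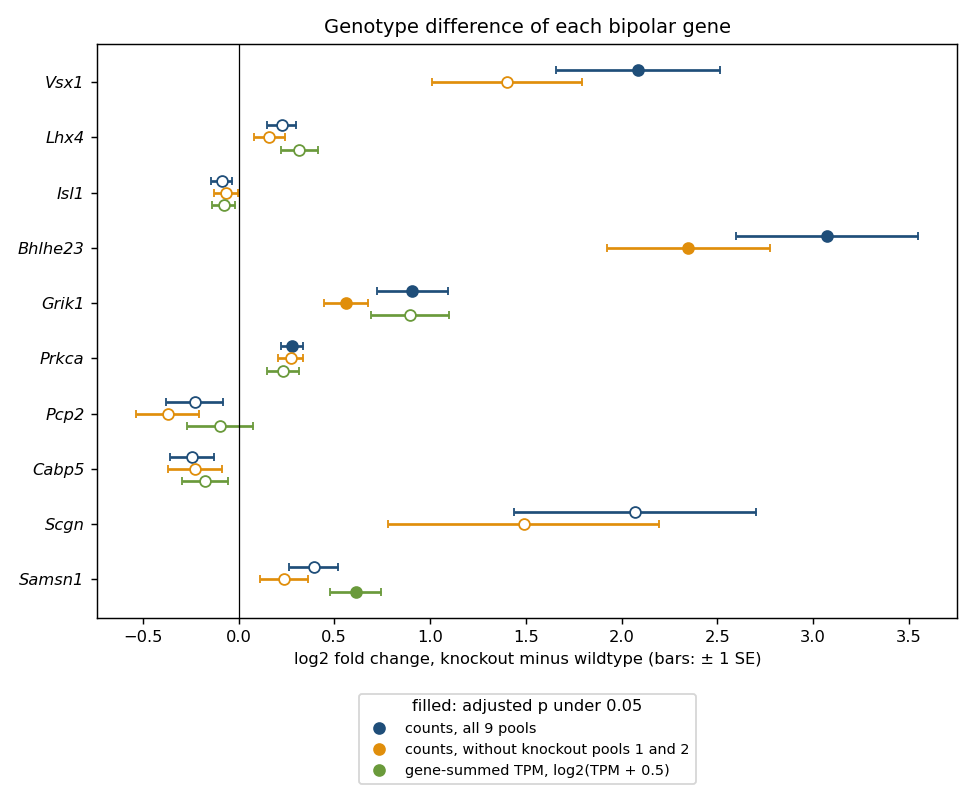
Log2 fold change (knockout minus wildtype, bars ± 1 SE) of each bipolar gene from counts of all 9 pools (blue), from counts without knockout pools 1 and 2 (orange) and from gene-summed TPM (green), with filled points where the adjusted p was under 0.05. Bhlhe23 and Grik1 are filled with and without the 2 pools, and Samsn1 is filled in TPM alone; Vsx1, Bhlhe23 and Scgn have no TPM point because they were below the filter.

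**Figure D3:**
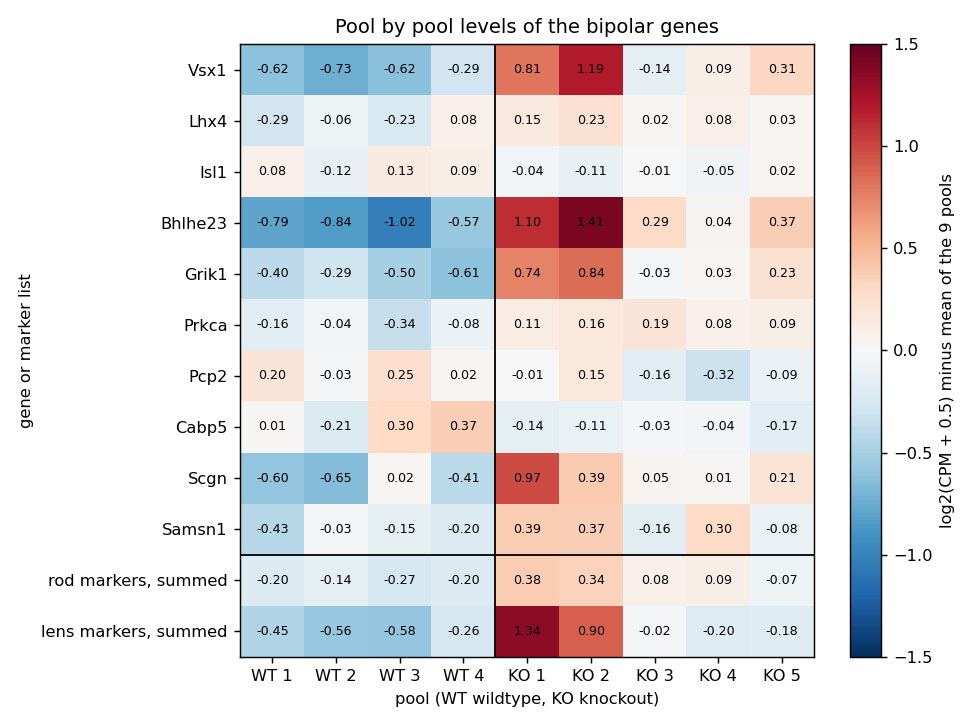
Level of each bipolar gene, and of the summed rod and lens markers, in each pool as log2(CPM + 0.5) minus the mean of the 9 pools, with wildtype pools at left and knockout pools at right. Knockout pools 1 and 2 are the darkest red for Vsx1 (0.81 and 1.19), Bhlhe23 (1.10 and 1.41), Grik1 (0.74 and 0.84) and the lens markers (1.34 and 0.90), whereas Isl1 stays within 0.13 of its mean.

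Beside the rod markers, of which 5 of 7 were called, the other retinal classes gave these values. Of all tested genes, 1.34% were called higher and 2.25% lower. Amacrine markers summed to 1038 to 1143 CPM in knockout and 1068 to 1155 CPM in wildtype pools, with 0 of 7 called. Ganglion cell markers summed to 845 to 990 CPM and 889 to 993 CPM, with 0 of 6 called, and cone markers to 405 to 489 CPM and 433 to 503 CPM, with 0 of the 5 tested called and Opn1mw too low to test. Bipolar markers, which include 8 of the 10 genes, summed to 832 to 916 CPM in knockout and 812 to 873 CPM in wildtype pools. Otx2, also a photoreceptor gene, held 647 to 737 CPM of these sums. Grm6, at 0 counts in wildtype pools 1 and 4, was the only bipolar marker at 0 in any pool. Of these 11 markers, 5 were called, all higher: Vsx1, Bhlhe23, Grik1, Prkca and Grm6. All but Grm6 are calls already given above and add no second result. Bhlhe23 and Grm6 entered the test through the knockout pools, and Otx2 and Trpm1 were not called. Horizontal cell markers summed to 62.1 to 69.0 CPM in knockout and 51.8 to 64.2 CPM in wildtype pools, with 1 of 4 called higher (Calb1). Müller glia markers summed to 920 to 1049 CPM and 852 to 990 CPM, with 1 of 5 called higher (Rlbp1), and pigment epithelium markers to 18.5 to 37.0 CPM and 24.1 to 30.1 CPM, with 0 of 5 called.

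The cascade of mGluR6 lets ON bipolar cells turn a fall in glutamate into depolarisation. Of its 12 listed genes, 2 were called higher (Grm6 and Gpr179) and 0 lower, beside 1.34% and 2.25% of all tested genes. Their median log2 fold change was 0.08, beside 0.0012 over all tested genes. Grm6 encodes mGluR6 itself and held 143, 193, 18, 43 and 21 counts in knockout pools 1 to 5 (1.87, 2.50, 0.277, 0.577 and 0.246 CPM), against 0, 2, 6 and 0 counts in wildtype pools 1 to 4. In counts, every knockout pool was above every wildtype pool, the wildtype pools were at or near the detection floor, and Grm6 entered the test through the knockout pools. The fitted log2 fold change of 5.38 (SE 0.99; edgeR adjusted p = 0.00787) depends on the prior count and is not a bound. Without knockout pools 1 and 2 it was 3.79 with an adjusted p of 0.0610 by edgeR. In TPM the Grm6 ranges overlapped, at 0.104 to 1.62 TPM in knockout and 0.0891 to 0.145 TPM in wildtype pools. On unfiltered TPM the log2 fold change of Grm6 was 0.76 with an adjusted p of 0.466 by limma.

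Gpr179 encodes an orphan receptor that holds the cascade's regulators at the dendritic tip. Of Gpr179, knockout pools 1 to 5 held 12.3, 12.9, 9.49, 9.46 and 9.78 CPM, and wildtype pools 1 to 4 held 9.01, 7.24, 7.15 and 7.77 CPM. The ranges did not overlap, but the log2 fold change of 0.47 (SE 0.12) passed only just (edgeR adjusted p = 0.0494) and the call was lost in 11 of 20 other settings. In the authors' deposited table, Gpr179 had a q-value of 0.606. Trpm1, the gene of the cation channel that the active cascade keeps closed, was at 4.75 ± 1.75 CPM (SD, n = 5) in knockout and 5.00 ± 0.483 CPM (SD, n = 4) in wildtype, with a log2 fold change of −0.07 (edgeR adjusted p = 0.925). Knockout pools 3 and 4 were the low ones for Trpm1, at 3.43 and 2.35 CPM, and leaving out either turned its sign.

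Among the 9 other bipolar transcription factors listed, 0 were called in either direction, beside 3.59% of all tested genes. Their log2 fold changes ran from −0.28 to 0.41, with a median of 0.02. Otx2, which acts upstream in both photoreceptors and bipolar cells, was at 683 ± 37.3 CPM (SD, n = 5) and 676 ± 27.8 CPM (SD, n = 4), with a log2 fold change of 0.02 (edgeR adjusted p = 0.919) whose sign turned without knockout pool 3.

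Of 9 other markers of bipolar types, 1 was called higher (Tacr3) and 0 lower, beside 1.34% and 2.25% of all tested genes. Their median log2 fold change was 0.17. Tacr3, the gene of the neurokinin 3 receptor of OFF cone bipolar cells, held 7.72, 8.73, 8.06, 8.71 and 7.56 CPM in knockout pools 1 to 5, and 6.71, 5.50, 6.60 and 6.17 CPM in wildtype pools 1 to 4. The ranges were apart, and the log2 fold change of 0.38 (SE 0.09) had an edgeR adjusted p of 0.0405, but the call was lost in 15 of 20 other settings. Tacr3 had a q-value of 0.121 in the authors' deposited table. Neurod4 and Prdm1, which act in the choice between bipolar cells and photoreceptors, were listed as fate factors. Neither was called, with log2 fold changes of 0.15 and 0.08.

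**Figure D4:**
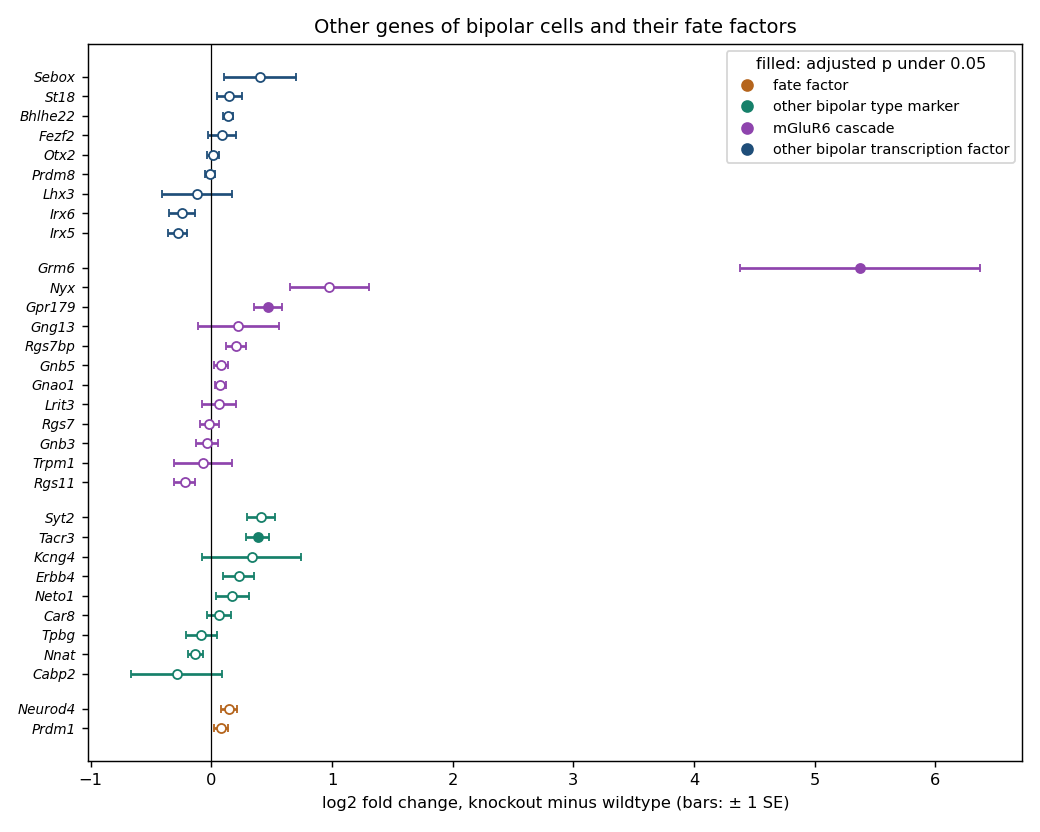
Log2 fold change (knockout minus wildtype, bars ± 1 SE) of the 32 other genes of bipolar cells and their fate factors, coloured by list and filled where the edgeR adjusted p was under 0.05. Grm6, Gpr179 and Tacr3 are filled, to the right of 0; all other points except Nyx (0.98) lie within 0.5 of 0.

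Over the 9 pools, the genes whose pattern came nearest to each of the 4 bipolar genes with the largest log2 fold changes were named by the root mean square difference of centred log2(CPM + 0.5), among genes with a mean of at least 1 CPM. That minimum left out Vsx1, Bhlhe23, Scgn and Grm6 as candidates, so Vsx1 and Bhlhe23 were not compared with each other. This is a description, and all values of a pool share its library and depth. For Bhlhe23, whose own root mean square deviation was 0.826, the nearest were Gsg1 (0.273), Gabrr3 (0.282) and Lgr5 (0.350). For Vsx1 (own deviation 0.631) they were Gsg1 (0.226), Tmem215 (0.228) and Lgr5 (0.228). For Grik1 (own deviation 0.492) they were Lgr5 (0.131), Vmn2r89 (0.183) and Cnga1 (0.183), the last a channel subunit gene of rods. For Scgn (own deviation 0.482) they were Insc (0.195), Guca1b (0.208) and Tmem215 (0.216). Among the candidates, Gsg1 was thus nearest to both Bhlhe23 and Vsx1, and Lgr5 was among the nearest 3 for Bhlhe23, Vsx1 and Grik1. The added 0.5 CPM exceeds the wildtype means of Bhlhe23 (0.170 CPM), Vsx1 (0.265 CPM) and Scgn (0.134 CPM) and damps their changes. Near patterns therefore need not match in size. The log2 fold change was 1.88 for Gsg1, 0.90 for Lgr5 and 0.89 for Tmem215, against 3.07 for Bhlhe23 and 2.08 for Vsx1.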

How the data were processed

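RNA-seq of 9 pools of P4 neural retina was analysed from 3 tables. The deposited counts are whole numbers per gene symbol, unnormalised, and no source used here names the program that wrote them; their totals exceed the read depth stated for the series. The TPM table was made by the authors with Trimmomatic 0.39 and kallisto 0.46.1 on GRCm38, per the submitters' processing notes; its columns sum to 953963 to 1083977, so these deposited TPM values had been rescaled, in a way that no source used here describes, and were treated as a score. It holds 118489 transcript rows, of which 1861 without a usable symbol were left out. Sleuth 0.30.8 produced the authors' deposited comparison, per the submitters' processing notes, which gives p-values and q-values and an effect on the natural log scale, per the file headers. That effect is higher in wildtype when positive, as read from Opn4, and was turned here to log2, knockout minus wildtype.

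Counts were fitted for all genes with edgeR 4.0.16 (R 4.3.3; filterByExpr, TMM, quasi-likelihood F test, two-sided, Benjamini-Hochberg adjustment), with genotype as the only term. The filter asks for 0.129 CPM in at least 4 pools. TPM were summed per gene and tested with limma 3.58.1 (limma-trend) on log2(TPM + 0.5) where at least 4 pools had 1 TPM or more. DESeq2 1.42.0, other filters and pseudocounts, a replicate block and pools left out in turn were alternatives. The fits were tested on simulated data. Pools of a genotype came from separate animals. The members and all gene lists were chosen with earlier results of these data known. All 10 genes are named with values; of the other bipolar lists, genes past the threshold and Otx2, Grm6 and Trpm1 are named. Some genes of these lists and of the marker lists are not reported here, and counts and sums leave them out. Overlapping exons were read from GENCODE M21, and near copies were sought with BLAST 2.17.0. The floor of 3 counts covers counting error only.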

Additional observations from a re-analysis of the deposited data

How the results depend on the processing

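Counts of calls moved with the tool and the pools. Against 284 genes called higher by edgeR, DESeq2 called 689, edgeR with no count filter 152, edgeR without single pools 153 to 347, edgeR without knockout pools 1 and 2 134 (chosen after seeing the data), and limma on TPM 95, 99 (pseudocount 0.1), 94 (pseudocount 1) or 46 (no filter on low values). Against 476 genes called lower, DESeq2 called 802, and limma on TPM called 235, 238 (pseudocount 0.1), 236 (pseudocount 1) or 148 (no filter). Of the 10 bipolar genes, 4 were called higher by edgeR and 5 by DESeq2, 3 of them among the 4. With edgeR, 2 were called with a mean CPM of at least 1 (Vsx1, Bhlhe23 and Scgn are then left out), 2 to 4 without single pools, and 2 without knockout pools 1 and 2. On TPM, limma called 1, 2 (pseudocount 0.1), 1 (pseudocount 1) or 0 (no filter). Of these TPM calls, 0, 1 (pseudocount 0.1) and 0 (pseudocount 1) were among the 4. Bhlhe23 stayed called without any single pool (log2 fold change 2.75 to 3.43) and was not called on unfiltered TPM (limma adjusted p = 0.0695). Of the other 32 bipolar genes, 3 were called higher by edgeR, 5 by DESeq2, 1 with no count filter, 1 to 3 without single pools, and 0 without knockout pools 1 and 2 and in each TPM fit; 0 were called lower by edgeR, 1 by DESeq2 and 0 to 1 without single pools. DESeq2 gave no adjusted p for Vsx1, Scgn and Grm6. Without single pools, the log2 fold change of Otx2 ran from −0.0157 (without knockout pool 3) to 0.0406, and that of Trpm1 from −0.197 to 0.0987 (above 0 without knockout pool 3 or 4). With a replicate block, edgeR called 365 genes higher, 223 of them among the 284, and 523 lower, 390 of them among the 476. All 4 bipolar genes stayed called with the block (Vsx1 adjusted p = 0.0477 by edgeR), while 2 of the other bipolar genes were called higher and 1 lower. Same-numbered pools correlated at −0.0447 to 0.0999 in their deviations, and not every pool matched its own number best. These few pools showed no clear pairing by number, but they cannot exclude a litter or batch shared between pools. The cause of these shifts was not tested. Vsx1, Bhlhe23, Scgn and Grm6 rest on few counts in wildtype pools, so their fold changes are the least precise.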
